A study of Mus musculus with 15 samples.

Results

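The genes described here are 9 G protein signalling genes of fat cells, taken by symbol from a list chosen with earlier results of these data known: Adrb3, Mc2r, Mrap, Ffar2, Ffar4, Ptgfr, Ptger4, Rgs2 and Gnas. All 9 were found among the 46603 Ensembl gene IDs of the count files, and all 9 were among the 15997 genes that passed the filter on low counts. For 4 of them, Adrb3, Mrap, Ffar2 and Ffar4, the filter was passed through treated cells alone, so a difference from untreated cells followed from having passed it. For Ffar4 it was passed through treated day 5 cells alone. The counts come from bulk RNA-seq of mouse embryonic fibroblasts (MEFs), primary connective tissue cells that can be driven towards fat cells by a hormone mixture. The MEFs were wild-type BALB/c cells from 10.5 day old embryos, and all 5 conditions shared that strain and genotype. The study's introduction describes MEFs from older embryos of another strain, without saying whether those were the cells used. MEFD0 cells were collected at day 0. MEFD3plu and MEFD5plu cells received 0.5 mM IBMX, which blocks phosphodiesterases and so raises cAMP, with 10 µg/mL insulin, 1 µM dexamethasone, a glucocorticoid, and 10 µM rosiglitazone, a PPARγ agonist. The mixture was given for 3 days, so MEFD3plu cells were collected at its end and MEFD5plu cells after a further stay in growth medium. MEFD3min and MEFD5min cells were untreated cells of the same days. Each condition had 3 samples, labelled replicates 1, 3 and 4, and total counts ran from 24030558 to 37281126 per sample.

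G protein-coupled receptors sit in the cell membrane and hand the signal of a hormone or metabolite to a G protein made of an alpha, a beta and a gamma subunit. In fat cells, receptors coupled to the stimulatory alpha subunit Gs, which Gnas encodes, raise cAMP and switch on protein kinase A, which starts the breakdown of stored triglyceride, while receptors coupled to Gi oppose this. RGS proteins speed the return of the alpha subunit to its resting state and so shorten the signal.

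Levels are given as CPM, counts scaled to library size with TMM factors, and a gene was called at a Benjamini-Hochberg adjusted p under 0.05 in edgeR's quasi-likelihood test over all 15997 genes. A gene was said to be at the floor in a condition if its 3 samples each had 3 counts or fewer, which is 0.0795 to 0.117 CPM in these libraries. The labelled cell types were checked with marker genes. The 14 adipocyte markers summed to 8803 to 10443 CPM in MEFD3plu samples and 10944 to 12717 CPM in MEFD5plu samples, against 63.7 to 90.1 CPM in the 9 day 0 and untreated samples. The 10 fibroblast markers were above the floor in every condition, with summed levels from 11041 to 34017 CPM. The 10 macrophage markers summed to 2.74 to 13.4 CPM. Adgre1 had 0 counts in every sample, and Ptprc had 0 counts in every treated sample and at most 6 elsewhere. Mrc1, Lyz2 and Cd68 were more abundant. Mrc1 averaged 0.794 CPM at day 0. It averaged 5.11 and 1.81 CPM in untreated and treated day 3 cells, and 5.71 and 5.43 CPM at day 5. Over the 5 conditions, Lyz2 averaged 0.368 to 2.77 CPM and Cd68 1.68 to 3.71 CPM. The 8 endothelial markers summed to 1.00 to 18.7 CPM. This sum was highest in day 5 cells of both arms, where Emcn alone averaged 12.5 CPM in MEFD5min and 13.3 CPM in MEFD5plu cells. Every other endothelial marker averaged at most 1.95 CPM in each condition, the level of Cdh5 in MEFD5min cells. In bulk samples, fewer cells of a type and less RNA per cell cannot be told apart.

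Treated and untreated cells of the same day were compared first. At day 3, 8 of the 9 genes were called, beside 56.1% of all genes tested, with 7 higher and 1 lower in treated cells (28% of all genes tested were called in each direction). At day 5, 8 of the 9 were again called, beside 50.5% of all genes tested, again 7 higher (26.3% of all genes) and 1 lower (24.2%). The genes higher in treated cells at both days were Adrb3, Mc2r, Mrap, Ffar2, Ffar4, Ptgfr and Rgs2, the one lower at both days was Ptger4, and Gnas was not called at either day. Adrb3, Mrap, Ffar2 and Ffar4 had passed the filter through treated cells alone. They could only be higher in treated cells, so these counts are partly set by the filter. The 3 treated samples did not overlap the 3 untreated samples for 7 genes at day 3 and 8 genes at day 5, beside 56.8% and 62.1% of all genes tested.

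**Figure D1:**
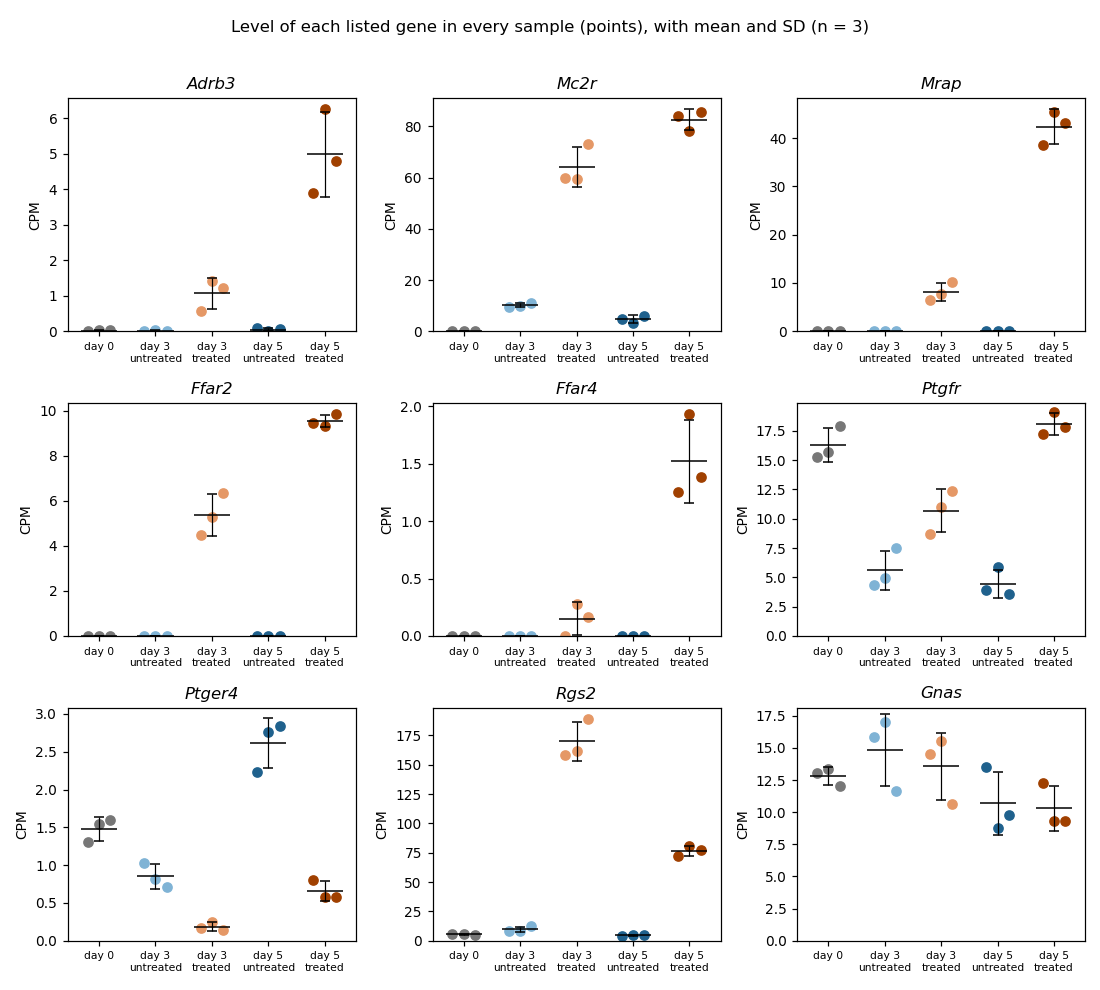
CPM of each of the 9 genes (vertical axis, from 0, on its own scale in each panel) in every sample (points) of the 5 conditions (horizontal axis), with the mean as a line and the SD as an error bar (n = 3). Adrb3, Mrap, Ffar2 and Ffar4 lie at or near 0 outside treated cells, Mc2r is also seen in untreated cells of days 3 and 5, Rgs2 peaks at 170 CPM in treated day 3 cells, and Ptger4 is highest in untreated day 5 cells.

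Adrb3 (ENSMUSG00000031489, chr8:27225776-27250616, minus strand, GRCm38) encodes the β3-adrenergic receptor, the Gs-coupled catecholamine receptor typical of rodent fat cells. Its counts were 0, 1 and 1 in the MEFD0 samples, 0, 1 and 0 in the MEFD3min samples and 3, 0 and 2 in the MEFD5min samples, so all 3 conditions were at the floor. They were 17, 45 and 43 in MEFD3plu samples and 131, 194 and 159 in MEFD5plu samples. Every treated sample was above every other sample. The mean level was 1.07 ± 0.434 CPM (SD, n = 3) in MEFD3plu and 4.98 ± 1.19 CPM (SD, n = 3) in MEFD5plu cells. The ratio of treated to untreated counts was 105.6 at day 3 (95% exact interval 18.5 to 4211, counting error only), resting on 1 untreated count in MEFD3min replicate 3, and 97.5 at day 5 (41.5 to 302), resting on 5, with adjusted p = 1.43e-06 and 2.63e-08 (edgeR). Without that library the fitted day 3 difference went from 6.26 to 8.14 on the log2 scale, a size set by the prior count, since the untreated samples left were at 0. Without MEFD5min replicate 1, which held 3 of the 5 counts, the fitted day 5 difference went from 6.52 to 7.13. Between the treated conditions, Adrb3 was higher at day 5 than at day 3 by 2.21 ± 0.346 on the log2 scale (SE, adjusted p = 3.28e-05, edgeR). Of its exon bases, 24.9% lie opposite Gm45470, a gene model that has no row in the count files.

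Mc2r (ENSMUSG00000045569, chr18:68406907-68429320, minus strand) encodes the receptor for adrenocorticotropic hormone (ACTH), a Gs-coupled melanocortin receptor. It had the largest rise from day 0 in untreated cells of the 9 genes. Its level was 0.137, 0 and 0 CPM in MEFD0 samples, from 4 counts in all, 9.65, 10.1 and 11.0 CPM in MEFD3min samples and 4.86, 3.19 and 6.16 CPM in MEFD5min samples. In treated cells it was 59.7, 59.5 and 73.2 CPM at day 3 and 84.3, 78.2 and 85.7 CPM at day 5. The 5 conditions did not overlap one another. Untreated day 3 cells had 262 times the day 0 level by summed counts (95% exact interval 102 to 964, counting error only), and untreated day 5 cells 126 times (49.0 to 465), with adjusted p = 3.46e-11 and 2.48e-09 (edgeR). All 4 day 0 counts came from MEFD0 replicate 1, and without it day 0 was at 0 counts and the fitted differences went from 7.90 to 11.40 and from 6.81 to 10.32 on the log2 scale, sizes set by the prior count. Treated cells exceeded untreated cells by 2.65 ± 0.181 on the log2 scale at day 3 (SE, adjusted p = 1.43e-09) and by 4.10 ± 0.196 at day 5 (adjusted p = 3.23e-11, edgeR). The day 3 effect was smaller than the day 5 effect by 1.45 ± 0.255 on the log2 scale (SE of the interaction, adjusted p = 0.000173, edgeR), where 48.5% of all genes tested had a called interaction, 25.8% in this direction and 22.6% in the other. Between the days, untreated cells fell by 1.09 on the log2 scale (adjusted p = 0.000227), whereas the difference of 0.37 between the treated days was not called (95% interval 0.02 to 0.71, adjusted p = 0.0623, edgeR). That difference was called without MEFD3plu replicate 4 (0.47, adjusted p = 0.0348), with no filter (adjusted p = 0.00722) and with only the compared samples (adjusted p = 0.00393, edgeR).

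Mrap (ENSMUSG00000039956, chr16:90738207-90749785, plus strand) encodes the melanocortin 2 receptor accessory protein, a small membrane protein that Mc2r needs to reach the cell surface and to bind ACTH. Its counts were 0, 0 and 3 in MEFD0 samples, 0 in all 3 MEFD3min samples and 0, 1 and 0 in MEFD5min samples. Treated cells had 6.51, 7.65 and 10.3 CPM at day 3 and 38.5, 45.5 and 43.2 CPM at day 5. Mrap was thus at the floor in all 3 conditions without the mixture, in contrast to Mc2r. At day 3 treated cells were at least 80.7-fold higher than 3 counts in the shallowest untreated library (adjusted p = 2.66e-10, edgeR). At day 5 the count ratio was 4165 (95% exact interval 747 to 164549, counting error only, from 1 untreated count, in MEFD5min replicate 3), with adjusted p = 9.03e-12, and without that library the fitted difference went from 11.57 to 13.47 on the log2 scale, again set by the prior count. The level rose between the treated days by 2.37 ± 0.188 on the log2 scale (SE, adjusted p = 4.72e-08, edgeR).

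Set per kilobase of exon, the ratio of Mrap to Mc2r was 0 in all 3 MEFD3min samples, although these held 308, 358 and 327 Mc2r counts. It was 0, 0.0126 and 0 in MEFD5min samples. It was 0.113, 0.133 and 0.145 in MEFD3plu samples and 0.471, 0.600 and 0.520 in MEFD5plu samples. The treated days did not overlap in this ratio, which is a description of values already given.

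**Figure D2:**
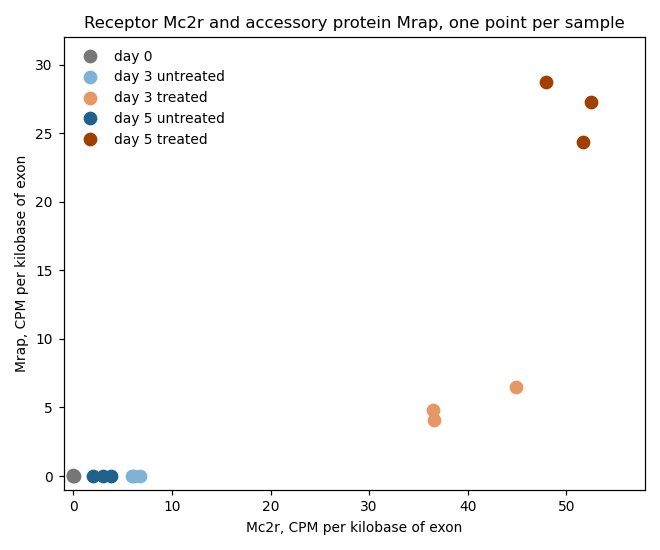
Mrap (vertical axis) against Mc2r (horizontal axis), both as CPM per kilobase of exon, with 1 point per sample coloured by condition. Untreated day 3 samples lie at 5.92 to 6.74 for Mc2r with Mrap at 0, treated day 3 samples at 36.5 to 44.9 with Mrap at 4.12 to 6.49, and treated day 5 samples at 47.9 to 52.5 with Mrap at 24.3 to 28.8.

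The 2 fatty acid receptors of the list were at 0 counts in all 9 samples without the mixture. Ffar2 (ENSMUSG00000051314, chr7:30818348-30823775, minus strand) encodes a receptor for short-chain fatty acids that couples to Gi and Gq. It had 4.47, 5.30 and 6.34 CPM in MEFD3plu samples and 9.47, 9.35 and 9.86 CPM in MEFD5plu samples. Treated cells were at least 53.2-fold higher at day 3 and at least 81.8-fold higher at day 5 than 3 counts in the shallowest untreated library (adjusted p = 1.11e-08 and 8.31e-09, edgeR). The rise from day 3 to day 5 among treated cells was 0.83 ± 0.186 on the log2 scale (SE, adjusted p = 0.00238, edgeR), and the 2 days did not overlap.

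Ffar4 (ENSMUSG00000054200, chr19:38097071-38114263, plus strand), also known as GPR120, encodes a receptor for long-chain fatty acids. Its counts were 0, 9 and 6 in MEFD3plu samples and 42, 60 and 46 in MEFD5plu samples. One treated day 3 sample was therefore also at 0, and the day 3 groups overlapped. The mean was 0.150 ± 0.142 CPM (SD, n = 3) at day 3 and 1.52 ± 0.361 CPM (SD, n = 3) at day 5. At day 5 treated cells were at least 13.0-fold higher than 3 counts in the shallowest untreated library (adjusted p = 9.7e-05, edgeR). At day 3 the bound was 1.49-fold and the call was narrow, with adjusted p = 0.0152 in edgeR, 0.119 in DESeq2 and 0.0525 in edgeR without MEFD3plu replicate 3. The rise between the treated days was called in edgeR (3.28 ± 0.642 on the log2 scale, SE, adjusted p = 0.000985) and not in DESeq2 (adjusted p = 0.221). Ffar4 had passed the filter through MEFD5plu samples alone, so a higher level there than in MEFD3plu cells was partly set by the filter.

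RefSeq promoter windows of GRCm38.p6 were searched for 6 of the 9 genes, with 12 start sites in all. Mc2r was left out of the search, and no window was found for Adrb3 or Mrap. The 250 bases before each start were searched on both strands for 6 motifs: the cAMP response element TGACGTCA and its half-site TGACG, the nuclear receptor half-site AGGTCA and its direct repeat AGGTCANAGGTCA, the glucocorticoid receptor palindrome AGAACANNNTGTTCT, and the C/EBP motif TTGCNNAA. The half-sites lie within the longer motifs of the same name. Of all 32817 windows of that length, 1.55% held TGACGTCA, 17.7% TGACG, 14% AGGTCA, 0.0335% its direct repeat, 0.00914% the palindrome and 9.57% TTGCNNAA. None of the 12 windows searched for the listed genes held TGACGTCA, the direct repeat or the palindrome. Shown here are the windows of the 2 genes raised by treatment that held 2 matches in a window, Ffar2 at its most upstream start (chr7:30823776-30824025, minus strand) and Rgs2 (chr1:144004150-144004399, minus strand), printed 5′ to 3′ with matches in capitals.
Ffar2: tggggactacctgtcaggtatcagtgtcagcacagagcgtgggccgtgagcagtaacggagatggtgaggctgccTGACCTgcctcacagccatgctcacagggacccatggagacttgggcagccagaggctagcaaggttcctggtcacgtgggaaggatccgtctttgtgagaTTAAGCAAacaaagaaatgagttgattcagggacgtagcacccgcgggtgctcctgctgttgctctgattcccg
Rgs2: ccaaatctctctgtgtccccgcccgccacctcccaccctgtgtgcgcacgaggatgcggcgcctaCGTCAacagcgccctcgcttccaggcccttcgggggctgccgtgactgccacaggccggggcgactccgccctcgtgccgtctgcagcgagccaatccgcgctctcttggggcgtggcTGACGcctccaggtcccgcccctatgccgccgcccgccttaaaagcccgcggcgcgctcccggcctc
In Ffar2 the first match is AGGTCA read on the other strand, at -175 to -170 from the start, and the second is TTGCNNAA on the other strand, at -74 to -67. In Rgs2 both matches are TGACG, at -185 to -181 on the other strand and at -67 to -63 on the gene's own strand. The Ptgfr window held 1 AGGTCA match, and those of Ffar4 and Ptger4 held none of the 6 motifs. With starts numbered from the most upstream, Ffar2 start 4 also held AGGTCA and TTGCNNAA, start 3 AGGTCA alone and start 2 TTGCNNAA alone. Gnas, which was not called between treated and untreated cells, held 1 TGACG match at each of starts 2, 3 and 4 and none of the motifs at start 1. The windows of Ffar2 starts 3 and 4 overlap, as do those of Gnas starts 2 and 3.

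The 2 prostaglandin receptors differed between treated and untreated cells in opposite directions. Ptgfr (ENSMUSG00000028036, chr3:151796502-151837630, minus strand) encodes the Gq-coupled receptor for prostaglandin F2α, a prostaglandin known to inhibit fat cell formation. Its level was 15.3, 15.7 and 17.9 CPM in MEFD0 samples. It was 4.39, 4.91 and 7.50 CPM in MEFD3min and 3.91, 5.84 and 3.62 CPM in MEFD5min samples. It was 8.73, 11.0 and 12.3 CPM in MEFD3plu and 17.2, 19.1 and 17.9 CPM in MEFD5plu samples. Untreated cells of both days were below day 0 in every sample, by 1.54 on the log2 scale at day 3 (adjusted p = 2.37e-06) and 1.89 at day 5 (adjusted p = 6.76e-07, edgeR). Treated cells exceeded untreated cells by 0.94 ± 0.194 on the log2 scale at day 3 (SE, adjusted p = 0.000525) and by 2.03 ± 0.197 at day 5 (adjusted p = 2.76e-07). The day 5 effect was the larger by 1.09 ± 0.275 on the log2 scale (SE of the interaction, adjusted p = 0.00342, edgeR). Against day 0, treated day 5 cells did not pass the test (0.15 on the log2 scale, adjusted p = 0.486, samples overlapping), so a level above untreated cells was not a level above the starting cells. Treated day 3 cells fell by 0.60 against day 0 (adjusted p = 0.0085), a call that was lost without MEFD3plu replicate 1 (adjusted p = 0.0507). Gm43618, a gene model opposite 4.85% of the exon bases of Ptgfr, was also called higher in treated cells, by 1.11 ± 0.345 on the log2 scale at day 3 and 1.73 ± 0.358 at day 5 (SE, adjusted p = 0.0115 and 0.000716, edgeR), at mean levels of 0.370 to 1.20 CPM in the untreated and treated conditions of days 3 and 5, and its part in the Ptgfr result was not tested.

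Ptger4 (ENSMUSG00000039942, chr15:5206661-5244187, minus strand) encodes EP4, a Gs-coupled receptor for prostaglandin E2. It was the one gene of the 9 that was lower in treated cells at both days. Its level was 1.30, 1.54 and 1.59 CPM in MEFD0 samples, 1.03, 0.814 and 0.706 CPM in MEFD3min samples and 2.23, 2.76 and 2.84 CPM in MEFD5min samples. In treated cells it was 0.171, 0.251 and 0.141 CPM at day 3, from 5, 8 and 5 counts, and 0.804, 0.580 and 0.573 CPM at day 5. At each day all treated samples were below all untreated samples. Ptger4 fell by 2.17 ± 0.335 on the log2 scale at day 3 (SE, adjusted p = 3e-05) and by 1.99 ± 0.262 at day 5 (adjusted p = 8.38e-06, edgeR), and the interaction was -0.18 with a 95% interval from -1.03 to 0.68 (adjusted p = 0.746). Both arms were higher at day 5 than at day 3, by 1.61 on the log2 scale in untreated cells (adjusted p = 6.93e-05) and by 1.79 in treated cells (adjusted p = 0.000244, edgeR). Of its exon bases, 16.5% lie opposite Ttc33 and Gm15937. Ttc33 was 0.66 higher on the log2 scale in treated cells at day 5 (adjusted p = 0.000332), the direction opposite to that of Ptger4, and at -0.29 at day 3 (adjusted p = 0.0586, edgeR), where it did not pass. Its part in the Ptger4 result was not tested, and Gm15937 had 0 counts in the 12 samples of days 3 and 5.

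Rgs2 (ENSMUSG00000026360, chr1:143999338-144004161, minus strand) encodes a regulator of G protein signalling that acts mainly on Gq and whose gene is known to answer cAMP. It had the highest level per kilobase of exon of the 9 genes in treated day 3 cells, at 46.8 ± 4.68 CPM per kilobase (SD, n = 3), with Mc2r next at 39.3 ± 4.81. Its level was 5.63, 5.51 and 4.94 CPM in MEFD0 samples, 8.58, 8.65 and 12.4 CPM in MEFD3min samples and 3.97, 5.26 and 4.62 CPM in MEFD5min samples. It was 159, 162 and 189 CPM in MEFD3plu and 72.2, 80.6 and 76.9 CPM in MEFD5plu samples. All 6 treated samples were far above the 9 others, and the 2 treated days did not overlap. Treated cells exceeded untreated cells by 4.11 ± 0.138 on the log2 scale at day 3 (SE, adjusted p = 1.85e-13), a 17.2-fold difference, and by 4.06 ± 0.144 at day 5 (adjusted p = 6.04e-13, edgeR), a 16.7-fold difference. The interaction was 0.05 with a 95% interval from -0.35 to 0.45 (adjusted p = 0.865), which did not show a difference between the days. The level fell from day 3 to day 5 by 1.15 ± 0.120 on the log2 scale in treated cells (SE, adjusted p = 3.94e-07) and by 1.10 ± 0.144 in untreated cells (adjusted p = 9.54e-06, edgeR). In treated cells, 6 of the 9 genes were higher at day 5 than at day 3 (33.8% of all genes tested were called in that direction), Rgs2 was the one called lower, and Mc2r and Gnas were not called. Among the 6, Ffar4 had passed the filter through MEFD5plu samples alone. Untreated day 3 cells were 0.88 above day 0 on the log2 scale (adjusted p = 3.96e-05), and untreated day 5 cells did not differ from day 0 beyond the test (-0.22, adjusted p = 0.242, edgeR).

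**Figure D3:**
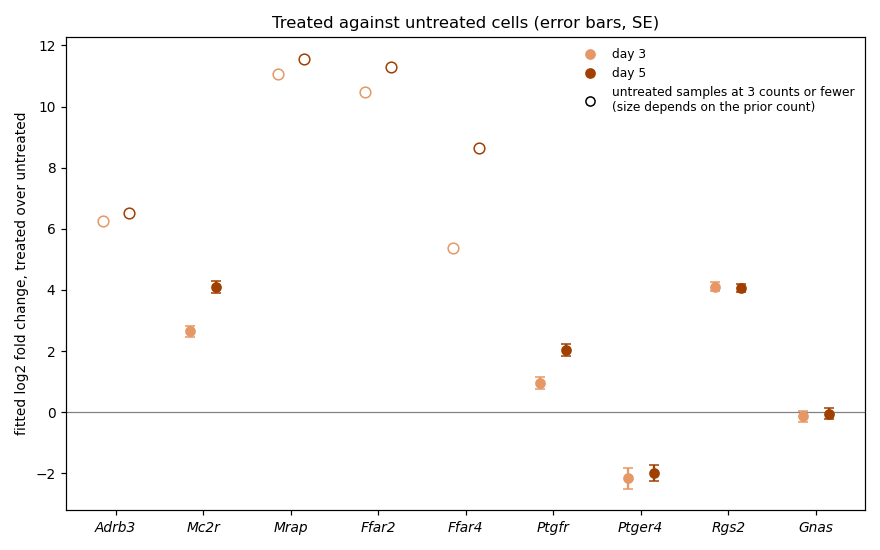
Fitted log2 fold change of treated over untreated cells (vertical axis) for each of the 9 genes at day 3 and day 5, with the SE as error bars on filled circles. Open circles, drawn without a bar, mark genes whose untreated samples had 3 counts or fewer, where the size depends on the prior count of the fit. Rgs2 sits at 4.11 and 4.06, Mc2r at 2.65 and 4.10, Ptgfr at 0.94 and 2.03, Ptger4 at -2.17 and -1.99 and Gnas at -0.13 and -0.06.

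Gnas (ENSMUSG00000027523, chr2:174284320-174346744, plus strand), an imprinted gene with several start sites, encodes Gs alpha. Its level was 13.1, 13.4 and 12.0 CPM in MEFD0 samples, 15.8, 17.0 and 11.7 CPM in MEFD3min samples and 14.5, 15.5 and 10.6 CPM in MEFD3plu samples. It was 13.5, 8.80 and 9.76 CPM in MEFD5min and 12.3, 9.31 and 9.29 CPM in MEFD5plu samples. All 5 conditions overlapped with their neighbours in the order of levels. Treated and untreated cells differed by -0.13 on the log2 scale at day 3 (95% interval -0.51 to 0.25, adjusted p = 0.55) and by -0.06 at day 5 (-0.45 to 0.33, adjusted p = 0.824, edgeR). The call of a fall from day 3 to day 5 in untreated cells was narrow (0.47 lower on the log2 scale, adjusted p = 0.0457, samples overlapping), and it was lost without MEFD3min replicate 1 or 3 or MEFD5min replicate 3 or 4 (adjusted p = 0.125, 0.155, 0.176 and 0.146).

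The Gnas count carries a limit of its own. Per kilobase of exon its mean level was 0.921 to 1.33 CPM over the 5 conditions, while Gnai2 and Gnai3, which encode Gi alpha subunits, had 109.7 and 89.6 CPM per kilobase in MEFD5min cells. The alpha subunit gene Gnal, at 0.234 to 0.390 CPM per kilobase, was below Gnas, and Gnai1, at 1.26 to 5.71, was near it at day 0. Also below Gnas were the alpha subunit genes Gnaz, at 0.0435 to 0.314, Gna14, at 0.0382 to 0.291, and Gna15, at most 0.0288. A protein-coding model on the other strand, Gm20721 (chr2:174330319-174346712), has 13 exons, and 99% of its exon bases lie opposite Gnas exons. Depending on the Gnas transcript, 0 to 85.4% of the exon bases lie opposite Gm20721. Gm20721 itself had 1 to 7 counts per sample in the 12 samples of days 3 and 5. The strand setting of the counting was not given in the sources used here, and how reads in the shared exons were counted was not tested. The Gnas level therefore cannot be set against that of other genes as a level of Gs alpha. Its differences between conditions, called or not, are likewise those of this count and may not be those of Gs alpha.

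**Figure D4:**
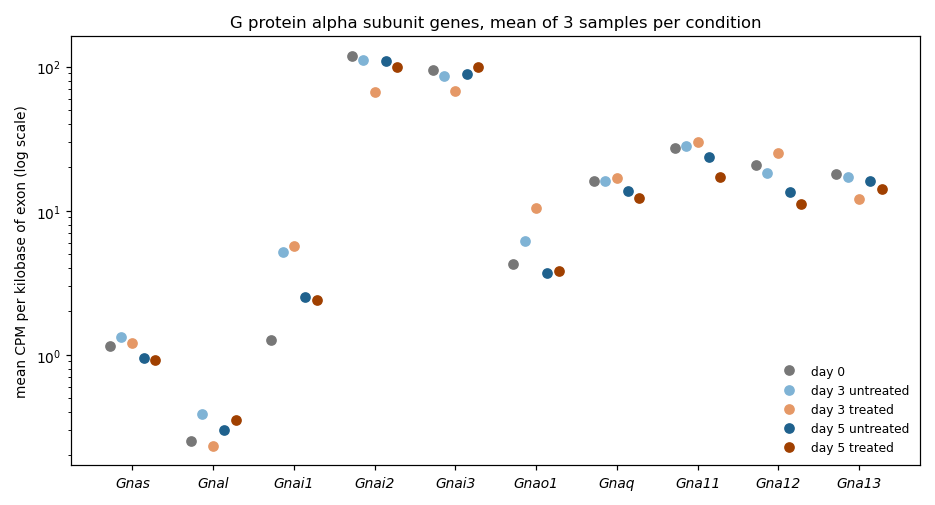
Mean CPM per kilobase of exon (vertical axis, log scale) of Gnas and 9 other G protein alpha subunit genes in each of the 5 conditions (coloured points, mean of 3 samples). Gnas lies between 0.921 and 1.33 in every condition, while Gnai2 and Gnai3 lie far above it and Gnal below it. Gnaz, Gna14 and Gna15, which are not drawn, were also below Gnas.

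The order of the levels over the 5 conditions differed between the genes. For Adrb3, Mrap, Ffar2 and Ffar4 it was MEFD5plu, then MEFD3plu, with the other 3 conditions at the floor and not ordered. For Mc2r it was MEFD5plu, MEFD3plu, MEFD3min, MEFD5min and MEFD0, where the first step did not pass the test. For Ptgfr, MEFD5plu and MEFD0 led and did not differ beyond their spread, followed by MEFD3plu and then by MEFD3min and MEFD5min, which did not differ beyond theirs (adjusted p = 0.196, edgeR). For Ptger4 the order was MEFD5min, MEFD0, MEFD3min, MEFD5plu and MEFD3plu, with MEFD3min and MEFD5plu not separated (adjusted p = 0.258, edgeR). For Rgs2 it was MEFD3plu, MEFD5plu, MEFD3min, MEFD0 and MEFD5min, with the last 2 not separated. Gnas had no step that passed, although its highest and lowest conditions, MEFD3min and MEFD5plu, differed by -0.53 on the log2 scale, MEFD5plu being lower (adjusted p = 0.0206, edgeR, samples overlapping). That pair was picked after the levels were seen, and it was not run under the alternative settings.

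Against day 0 cells, which all 4 of the following comparisons share, treated day 3 cells had 6 listed genes higher and 2 lower (63.5% of all genes tested were called, 33.9% higher and 29.7% lower), the lower ones being Ptgfr and Ptger4. The Ffar4 samples overlapped those of day 0, and its call was lost in DESeq2 (adjusted p = 0.104). Adrb3, Mrap, Ffar2 and Ffar4, higher at both treated days, had passed the filter through treated cells alone. Treated day 5 cells had 6 higher and 1 lower (65% of all genes, 35.2% higher and 29.8% lower), the lower one again being Ptger4 at -1.18 on the log2 scale (adjusted p = 0.000933, edgeR). Untreated day 3 cells had Mc2r and Rgs2 higher and Ptgfr and Ptger4 lower (60% of all genes called, 31.4% higher and 28.6% lower). Untreated day 5 cells had Mc2r and Ptger4 higher and Ptgfr lower (46.4% of all genes called, 24.5% higher and 21.9% lower). The Ptger4 calls in untreated cells were narrow, at -0.79 for day 3 and 0.82 for day 5 on the log2 scale (adjusted p = 0.014 and 0.0106), and each was lost without a single library, MEFD3min replicate 4 (adjusted p = 0.0532) and MEFD5min replicate 4 (adjusted p = 0.0576, edgeR). The day 3 call was also lost with no filter (adjusted p = 0.0624, edgeR). Between the days, 4 listed genes were called in untreated cells, 1 higher and 3 lower at day 5 (42.8% of all genes, 21.3% higher and 21.5% lower), and 7 in treated cells, 6 higher and 1 lower (63% of all genes, 33.8% higher and 29.2% lower). The treated days did not overlap for 8 of the 9 genes, beside 69.6% of all genes tested. Ffar4, counted here as higher at day 5, had passed the filter through MEFD5plu samples alone.

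Other genes of the pathway were counted by list, with the 9 genes left out of the lists. Over all genes tested, 28% were called in each direction at day 3, and 26.3% were called higher and 24.2% lower at day 5. The genes named average 1 or more on the log2 CPM scale unless said to have been chosen after their values were seen. Of 27 G protein subunit genes 24 were tested, and 2 were higher and 13 lower in treated cells at day 3 (62.5% called, against 56.1% of all genes), with a median log2 fold change of -0.44, against -0.00057 over all genes. Gng11, a gamma subunit gene, fell by 3.21 on the log2 scale and Gnb4, a beta subunit gene, by 2.13 (adjusted p = 5.85e-10 and 1.61e-13, edgeR). Gng2 and Gnb5, again of the gamma and beta families, fell by 1.01 and 0.93. At day 5 the list had 2 higher and 5 lower (29.2% called, against 50.5% of all genes), or 2 and 10 where libraries were scaled by total counts alone. Gng11 was lower by 0.77, Gnb1 by 0.48 and the Gq family gene Gna11 by 0.47, while Gng8 was 0.67 higher.

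Of 20 other RGS genes 11 were tested, with 2 higher and 7 lower at day 3 (81.8% called, against 56.1% of all genes) and 3 higher and 5 lower at day 5 (72.7%, against 50.5%). Rgs17 fell by 2.32 on the log2 scale at day 3 and 0.98 at day 5, Rgs12 by 1.51 and 0.82, and Rgs16 by 1.17 and 1.57 (adjusted p at most 2.67e-05, edgeR). Rgs7 was 1.65 higher at day 3 (adjusted p = 3.24e-07) and Rgs10 0.84 higher at day 5 (adjusted p = 0.00248). Rgs4, added after its values were seen, had the list's largest difference and in the direction of Rgs2, at 3.98 higher at day 3 and 2.52 higher at day 5 (adjusted p = 8.56e-09 and 5.61e-06, edgeR).

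Among 16 tested genes of adenylyl cyclases, which make cAMP, and of protein kinase A and its inhibitors, 6 were higher and 8 lower at day 3 (87.5% called, against 56.1% of all genes) and 4 were higher and 2 lower at day 5 (37.5%, against 50.5%), or 3 and 3 with scaling by total counts alone. Among genes averaging 1 or more on the log2 CPM scale, the largest day 3 changes were falls. The kinase inhibitor gene Pkia fell by 2.63 on the log2 scale and the inhibitor gene Pkig by 1.26. The cyclase genes Adcy7 and Adcy8 fell by 1.74 and 1.32 (adjusted p at most 1.11e-07 for all of these, edgeR). Of less abundant genes, added after their values were seen, Adcy10 was 1.87 higher and Adcy4 2.63 lower at day 3 (adjusted p = 0.00584 and 0.00393, edgeR). Prkar2b, which encodes the regulatory subunit RIIβ found in fat cells, was 0.91 higher at both days (adjusted p = 8.27e-09 at day 3 and 1.89e-08 at day 5, edgeR). Also higher at day 3 were Prkaca by 0.88, Adcy6 by 0.87, Prkar2a by 0.71 and Adcy9 by 0.70, added after their values were seen. The catalytic subunit gene Prkacb was 0.34 lower at day 3 and 0.40 higher at day 5. Prkar2a, higher at day 3, was 0.72 lower at day 5, and Adcy7 was 0.73 lower.

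Of 7 tested receptor kinase and arrestin genes, which end receptor signalling, 2 were higher and 2 lower at day 3 (57.1% called, near the 56.1% of all genes) and 1 was higher and 4 lower at day 5 (71.4%, against 50.5%). Grk5 was higher by 2.72 on the log2 scale at day 3 and 0.48 at day 5 (adjusted p = 8.65e-12 and 0.00268, edgeR). Arrb1 was higher by 1.71 at day 3 and lower by 0.44 at day 5. Grk4 and Arrb2 were 0.57 and 0.30 lower at day 3, and Grk2 and Grk6 fell by 0.69 and 0.67 at day 5. The day 3 count of 4 called genes was 2 without MEFD3plu replicate 1 or replicate 4, and the day 5 count of 5 was 3 without MEFD5min replicate 3, MEFD5plu replicate 3 or MEFD5plu replicate 4.

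Of 38 other receptors of the same families 24 were tested, with 12 higher and 7 lower at day 3 (79.2% called, against 56.1% of all genes, median log2 fold change 0.82) and 15 higher and 6 lower at day 5 (87.5%, against 50.5%, median 1.15, against 0.010 over all genes). Hcar1, Adora1, Ptger2, Hcar2 and Sucnr1, chosen after their values were seen, averaged 0 to 0.0761 CPM in each day 0 and untreated condition. They passed the filter through treated cells alone and could only be higher. The counts and medians of this list are thus partly set by the filter. Adora2b, an adenosine receptor gene, fell by 2.22 on the log2 scale at day 3 (adjusted p = 1.04e-11, edgeR). Npy1r, a neuropeptide Y receptor gene, was 0.97 higher at day 3 and 1.62 at day 5, and Lpar4, a lysophosphatidic acid receptor gene, 0.93 and 2.42. S1pr3 was 0.92 higher at day 3, and the prostacyclin receptor gene Ptgir and Lpar6 were 1.61 and 1.09 higher at day 5. Chosen after their values were seen, 2 relatives of listed genes are added. Mc5r, another melanocortin receptor gene, had means of 1.07 and 22.0 CPM in untreated and treated day 3 cells and 0.157 and 6.58 CPM at day 5. Ptger2, whose product EP2 is the other Gs-coupled receptor for prostaglandin E2, had means of 0 and 0.861 CPM at day 3 and 0.0180 and 0.492 CPM at day 5, opposite in direction to Ptger4.

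**Figure D5:**
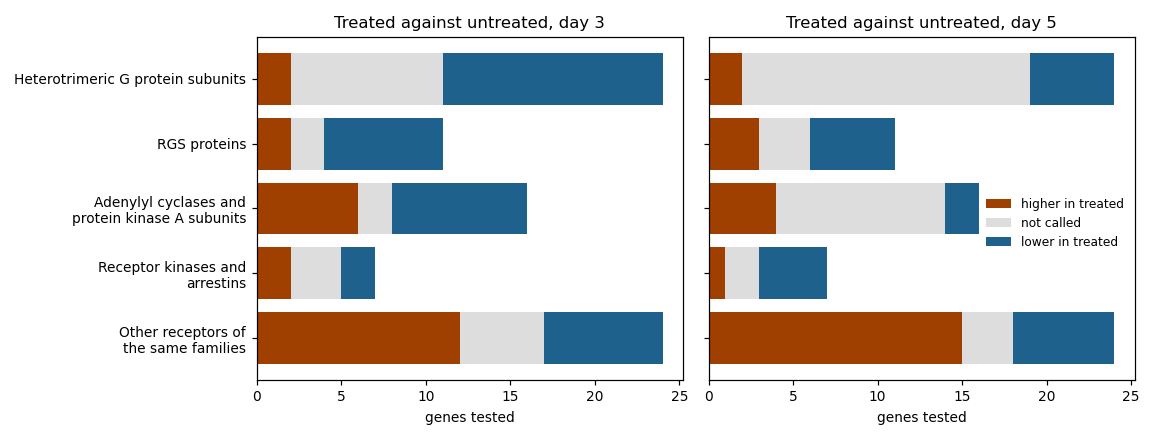
Number of tested genes (horizontal axis) in each of the 5 pathway lists that were called higher, not called or called lower in treated cells, at day 3 (left) and day 5 (right). G protein subunit genes are mostly lower at day 3, with 2 higher and 13 lower, and receptors of the same families mostly higher, with 12 and 15 higher at the 2 days. Some of these receptors passed the filter through treated cells alone and could only be higher.

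The genes whose course over the 15 samples was most like that of each listed gene were ranked by Pearson's r of log2 CPM. The 15 points are 5 conditions of 3 samples and share libraries and scaling, so r is a description. Ffar2 was most like Adig (r = 0.9996), Mgll and Lgals12, Mrap most like Orm1 (r = 0.997), and Mc2r most like Steap4 (r = 0.993) and C1qtnf7. Rgs2 was nearest to Mccc1 (r = 0.991), Adrb3 to Ces1d (r = 0.988), Ptger4 to Cntnap4 (r = 0.981) and Ffar4 to Apoc4 (r = 0.978) and Sucnr1. Ptgfr was nearest to Adh7 (r = 0.965), and for Gnas the closest gene, Sept8, reached r = 0.884.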

How the data were processed

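RNA was sequenced from 15 MEF cultures, 3 in each of 5 conditions. The deposited files hold raw counts per Ensembl gene and sample, made by the authors from reads aligned to mouse build GRCm38 (mm10), and the submitters' processing notes name TopHat2 2.1.0, HTSeq and DESeq2 without their roles. Neither the gene annotation, nor how strand was treated in counting, nor what became of reads with several matches was given in the sources used here, and the labels and the study's methods name different library kits, one that keeps strand and one that does not. Genes were named and measured from GENCODE M21, which matched 46091 of the 46603 IDs (coordinates are of GRCm38). Counts were filtered (filterByExpr, 5 conditions), scaled by TMM and fitted over all 15 samples with edgeR 4.0.16 (glmQLFit and glmQLFTest, R 4.3.3), with Benjamini-Hochberg adjustment over 15997 genes. The interaction was given for the 5 genes with counts above the floor in untreated cells. Ratios against 1 to 10 counts carry exact 95% binomial intervals, and against 0 counts the bound uses 3 counts in the shallowest library. These binomial intervals and the floors cover counting error only and not the spread between samples, and reads were not tagged by molecule. Total counts of 24030558 to 37281126 per sample set that precision. The other 95% intervals rest on the SE of the edgeR fit. That SE was the absolute log2 fold change over the square root of the F statistic of the test.

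The members and lists were chosen with earlier results of these data known. Named pathway genes are up to 4 per list and comparison with the largest absolute log2 fold change among those called and averaging 1 or more on the log2 CPM scale, and the 3 genes of highest r were listed for each gene. Pathway genes said to have been chosen after their values were seen fall outside this rule. Labels do not say whether samples came from separate embryos, although the study's methods speak of independent experiments, so p-values measure the spread between these samples. No pair of samples of a condition agreed within sampling noise (chi-square per degree of freedom 5.74 to 114). Same-numbered samples of MEFD3min and MEFD3plu deviated together (correlations of their deviations from the group means 0.143, 0.228 and 0.360). In no other pair of conditions were all 3 correlations over 0.1 (-0.152 to 0.180). Differently numbered samples were not compared, so this check cannot tell whether the numbers paired the samples. Alternatives were DESeq2 1.42.0, DESeq2 size factors, total counts alone, no filter, only the compared samples, a replicate block and leaving out each sample. The scripts were tested on simulated data.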

Additional observations from a re-analysis of the deposited data

Results flagged for a closer look

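For 2 of the 5 genes with an interaction, the effect of treatment differed between the days. For Mc2r the interaction, day 3 effect minus day 5 effect, was -1.45 on the log2 scale (adjusted p = 0.000173, edgeR, adjusted over all genes), from effects of 2.65 and 4.10, and it ran from -1.65 to -1.26 without single samples. Its untreated level fell between the days from 10.2 ± 0.691 to 4.74 ± 1.49 CPM (SD, n = 3), while its treated level was 64.1 ± 7.85 and 82.7 ± 3.98 CPM.

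For Ptgfr the interaction was -1.09 (adjusted p = 0.00342, same test), from effects of 0.94 and 2.03, and it ran from -1.32 to -0.83 without single samples. Its untreated level was 5.60 ± 1.67 and 4.46 ± 1.21 CPM at days 3 and 5, and its treated level 10.7 ± 1.83 and 18.0 ± 0.945 CPM (SD, n = 3). Called interactions made up 48.5% of all genes tested.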

How the results depend on the processing

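Both treated against untreated comparisons kept 8 called genes of 9, or 7 at day 3 where the Ffar4 call was lost, and in these 2 comparisons every called gene kept its direction under all alternatives. Scaling by total counts alone shifted the median over all genes at day 5 by -0.16 on the log2 scale and the share of calls that were higher from 52.1% to 37%, and raised the called G protein subunit genes at day 5 from 7 to 12. It also turned the direction of 3 uncalled values, Gnas in MEFD3plu/MEFD0 (-0.0169), Ptgfr in MEFD5plu/MEFD0 (-0.0355) and the Gnas interaction (0.10). With the replicate block, 3 further values passed, Mc2r (0.37, adjusted p = 0.0169, edgeR) and Gnas (-0.39, adjusted p = 0.0202) in MEFD5plu/MEFD3plu and Gnas in MEFD5plu/MEFD0 (-0.32, adjusted p = 0.0488), although same-numbered samples of these conditions did not deviate together. In MEFD3plu/MEFD3min, where they did, the block left 8 genes called and changed no call, and in no comparison was a call lost. Leaving out single samples turned the direction of uncalled values only: the interactions of Rgs2 (-0.0463 to 0.239), Ptger4 (-0.44 to 0.00512) and Gnas (-0.28 to 0.0762), and Gnas in MEFD3plu/MEFD3min (-0.28 to 0.0183), MEFD5plu/MEFD5min (-0.21 to 0.15) and MEFD3plu/MEFD0 (-0.0281 to 0.23). Called receptor kinase and arrestin genes then ranged from 2 to 3 at day 3 and from 3 to 6 at day 5. Across alternatives the Gnas call in MEFD5min/MEFD3min was lost with total counts alone (adjusted p = 0.136) and with only the compared samples (0.091), the Mc2r difference in MEFD5plu/MEFD3plu passed with no filter (0.00722) and with only the compared samples (0.00393), and uncalled Gnas values between treated days and against day 0 passed in several. The causes were not tested. Values under 3 counts limit Adrb3, Mrap, Ffar2 and Ffar4 outside treated cells.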
